A study of Homo sapiens with 4 samples.

Results

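Histone transcripts were examined in GIST-T1 cells with and without a mimic of miR-335. GIST-T1 is a human line established from a gastrointestinal stromal tumor (GIST), and a mimic is a man-made RNA that works in place of the natural microRNA. The members were all probes, other than control probes, whose gene name on the array begins with HIST1H, HIST2H, HIST3H, HIST4H, H1F, H2AF or H3F. This rule gave 85 of the 36337 gene names and 107 of the 50599 probes. Of these, 70 genes (84 probes) carry HIST names and 15 genes (23 probes) carry the names of replacement variants. The HIST names were taken, by name alone, as the replication-dependent genes, which lie mostly in clusters. They also take in HIST1H2APS1 and HIST2H2BA, pseudogenes by their current symbols (H2AC2P and H2BP1), neither of which had a tested probe.

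There were 2 arrays of cells nucleofected with 100 pmol of the miR-335 mimic and 2 arrays of cells nucleofected with the same amount of mirVana miRNA Mimic Negative Control #1. RNA was taken 48 h later, and 100 ng of it went onto each 1-color Agilent array. The description labels of the mimic arrays also carry the name miR-34a_mimic, whereas the titles and all other labels give miR-335, and the arrays are treated here as miR-335 mimic. The labels do not say that the replicates were separate cultures, so the p-values measure only the spread between these 4 samples, which may be technical.

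Between 40.3% and 41.9% of all probes were well above background per array, no spot was saturated, and all 4 arrays came from 1 slide and 1 scan. All 6 GIST markers looked for (KIT, ANO1, ETV1, PRKCQ, CD34 and PDGFRA) were well above background on the 4 arrays, as were 3 of 4 epithelial markers (KRT8, KRT18 and EPCAM), 1 of 3 leukocyte markers (CD14) and 0 of 3 endothelial markers. With each array scaled to the 75th percentile of its probes, the 6 GIST markers were lower with the mimic by 0.07 to 0.33 (log2). None passed the adjusted threshold in limma (smallest adjusted p 0.0512, for KIT). Of the 6, 2 were lower at an unadjusted p under 0.05, against 13.7% of all tested probes. Scaled to external spike-in probes, 5 passed the adjusted threshold as lower (median -0.28), against 44.6%. With limma's variance modeled on intensity 2 passed as lower, against 8.54%. Any part of these marker differences in the histone values was not tested.

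Histones are the proteins around which DNA is wound: H2A, H2B, H3 and H4 form the core of the nucleosome, and H1 binds the DNA between nucleosomes. The replication-dependent genes are transcribed mainly in S phase, and their messages end in a short stem-loop, bound by SLBP, in place of a poly(A) tail. Replacement variants such as H3.3 and H2A.Z are made throughout the cell cycle from ordinary polyadenylated messages.

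The stem-loop letters were sought in the array's own probes because replication-dependent messages end in a stem-loop. The pattern does not require the stem to pair, and a match does not by itself place a probe at the end of such a message. The letters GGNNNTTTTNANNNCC (N, any base), read on the message strand, were found in 20 of the 50599 probes (0.0395%), and 6 of the 84 HIST probes (7.14%) and 0 replacement probes were among them. On the opposite strand 22 probes held these letters, and 0 were members. The 6 stretches follow, 5′ to 3′ on the message strand, with the stem-loop in capitals; the probes lie on hg19, the build of the array files.
HIST1H2AI, probe at chr6:27776386-27776445, plus strand: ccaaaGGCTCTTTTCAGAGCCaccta
HIST1H2BE, probe at chr6:26184399-26184458, plus strand: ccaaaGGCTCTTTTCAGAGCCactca
HIST1H2BF, probe at chr6:26200153-26200212, plus strand: ccaaaGGCTCTTTTAAGAGCCa
HIST1H3H, probe at chr6:27778255-27778314, plus strand: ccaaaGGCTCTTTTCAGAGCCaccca
HIST2H3A, probe at chr1:149824626-149824685, plus strand: caaaaGGCTCTTTTCAGAGCCacc
HIST1H4K, probe at chr6:27798954-27799013, minus strand: caaaaGGCCCTTTTTAGGGCCcc
The HIST1H2BE probe was not well above background on any array. The other 5 included both the largest positive difference among the HIST probes (HIST1H2BF) and a negative one (HIST1H4K), with the values given further on.

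The labels name the mimic as miR-335 and do not give the arm, so both arms were looked at. RefSeq gives the mature 5p strand at chr7:130496126-130496148 on the plus strand of GRCh38.p14, shown here with the seed (bases 2 to 8) in capitals.
hsa-miR-335-5p: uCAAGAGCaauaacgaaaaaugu
The 3p strand lies at chr7:130496162-130496183 and is shown in the same way.
hsa-miR-335-3p: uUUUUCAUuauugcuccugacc
The complement of the 5p seed, GCTCTTG, occurred in 221 of all probes (0.437%) and in 1 of the 107 member probes (0.935%). That probe belongs to HIST1H2BL (chr6:27775286-27775345, hg19, minus strand) and reads as follows, with the match in capitals.
HIST1H2BL: aaattctcaaGCTCTTGtcc
Its values were 4.29 and 4.26 with the mimic and 4.23 and 4.16 in the control, a difference of 0.08 ± 0.05 (SE; limma adjusted p = 0.364). The complement of the 3p seed, ATGAAAA, occurred in 618 of all probes (1.22%) and in 1 member probe (0.935%), a probe of H2AFV that was well above background on no array. The probes cover 60 bases of a message, so sites elsewhere in these messages were not analysed here.

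Values below are log2 processed signal minus the 75th percentile of all probes on the same array. Probes entered the test if the 2 arrays of either group both read them well above background, which left 20328 probes. Among the members 83 of 107 probes were tested (69 of 85 genes), and all 83 were well above background on the 4 arrays. They were 69 HIST probes (59 genes) and 14 replacement probes (10 genes). Of the 24 probes that were not tested, 23 were well above background on no array and 1 (HIST2H4A) on 1 array. The 11 HIST genes without a tested probe included the linker histones HIST1H1A, HIST1H1B and HIST1H1T, the divergent pair HIST1H2AA and HIST1H2BA, and HIST4H4. The 5 replacement genes without one were H1F0, H1FNT, H1FOO, H2AFB2 and H2AFB3. A different number of cells in S phase and a different amount of histone RNA per cell cannot be told apart in these bulk samples. The labeling kit primes from poly(A) tails, which replication-dependent messages lack, and its part in the HIST signal was not tested.

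The first question was whether the replication-dependent genes differed between mimic and control cells. On this scale 60 of the 69 HIST probes (87.0%) were higher with the mimic, with a median difference of 0.13 (range -0.23 to 0.63), against 46.2% of all 20328 tested probes with a median of -0.01; scaled to the external spike-in probes instead, the HIST median was -0.06, 15 of the 69 were higher, and the median of all tested probes moved to -0.20. Spike-in scaling lowered the difference of every tested probe by the same 0.19. Because all probes moved alike, the HIST median necessarily stayed 0.14 above the median of all probes. The differences were small: 1 HIST probe exceeded 1.5-fold, in the higher direction, where 2.43% of all tested probes did so, and 0 exceeded it in the lower direction, where 1.47% did so.

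No HIST probe passed an adjusted p of 0.05 in limma, where 1.47% of all tested probes passed as higher and 1.15% as lower; the smallest adjusted p was 0.0709, for HIST1H2BF. At an unadjusted p under 0.05 limma gave 33 HIST probes higher (47.8%, against 11.7% of all tested probes) and 3 lower (4.35%, against 13.7%). The mimic and control arrays did not overlap for 51 HIST probes higher (73.9%, against 27.1% of all tested probes) and for 5 lower (against 32.5%). With limma's variance modeled on intensity, 33 HIST probes passed the adjusted threshold as higher and 2 as lower, against 6.63% and 8.54% of all tested probes. After normexp background correction and quantile normalization, 5 passed as higher and 0 as lower, against 3.58% and 3.42%. With spike-in scaling, 16 passed as lower (23.2%) and 1 as higher (1.45%), against 44.6% and 2.54% of all tested probes, so the share of HIST probes lower was under that of all probes.

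With spike-in scaling the median HIST difference was -0.06, and the array values that follow are on the 75th percentile scale. On that scale both mimic arrays lay above both control arrays in the HIST median. As a deviation from each probe's mean, the HIST median was 0.05 and 0.06 on the mimic arrays and -0.05 and -0.07 on the control arrays. The 4 possible differences between a mimic and a control array had HIST medians of 0.11 to 0.14, whereas the 2 replicate arrays differed by a median of -0.01 for the mimic and 0.02 for the control. For the 14 replacement probes the 4 medians were 0.01 to 0.04 and those between replicates -0.01 and 0.01. Over all tested probes the 4 medians were -0.027 to 0.002. The HIST medians between groups were larger than those between replicates on every pair of arrays, though the pairs reuse the same 4 arrays. The replacement medians were closer to those between replicates. The difference between HIST and replacement probes was not tested.

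**Figure D1:**
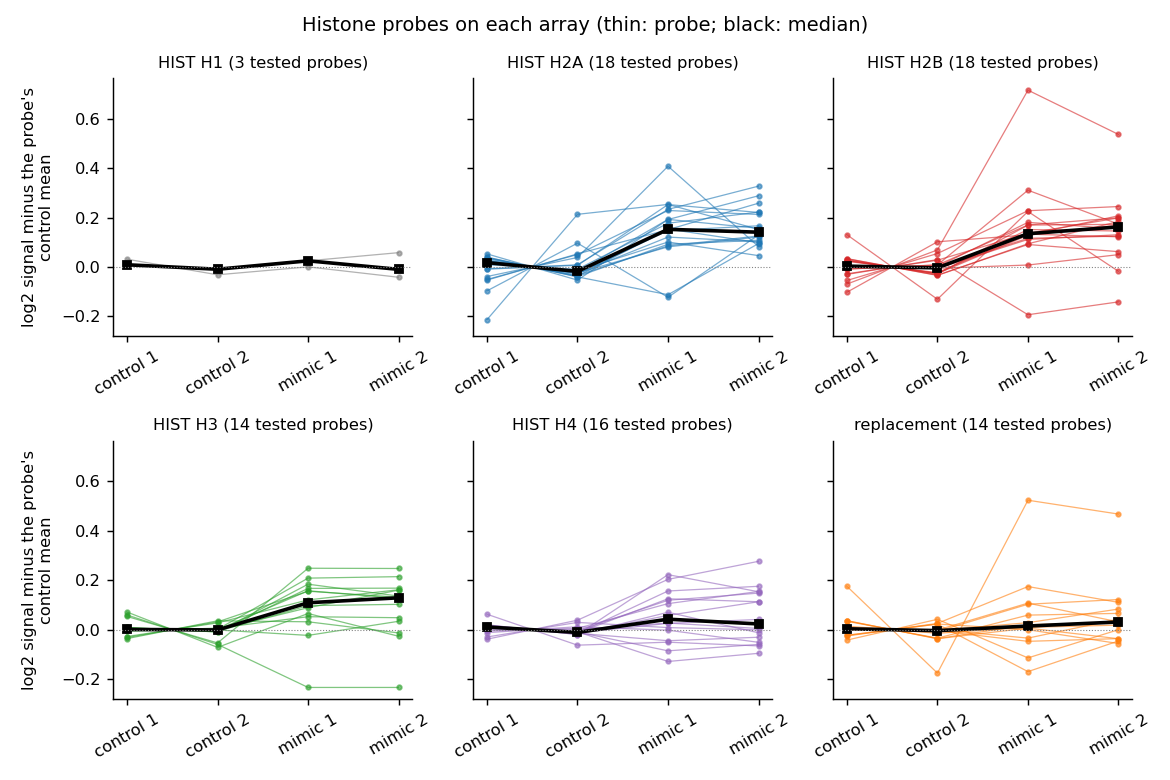
Each thin line is 1 tested probe and shows its log2 signal on the 4 arrays minus its mean on the 2 control arrays; the black line is the median of the panel, and panels are the HIST families and the replacement variants (the highest replacement line is the antisense transcript H1FX-AS1). Scaled to the 75th percentile, most H2A, H2B and H3 lines lie above 0 on both mimic arrays, while the H1 and replacement medians stay near 0; with spike-in scaling the HIST median was -0.06.

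The core histone families were described apart, and differences between families were not tested. On the 75th percentile scale 17 of 18 H2A probes were higher with a median of 0.17, 17 of 18 H2B probes with a median of 0.15 and 13 of 14 H3 probes with a median of 0.13, and all 3 medians turned negative with spike-in scaling (-0.02, -0.04 and -0.05). Of the 16 H4 probes 11 were higher, and the median was 0.03 (-0.16 with spike-in scaling). The 3 linker histone H1 probes had a median of 0.01 (-0.18 with spike-in scaling). At an unadjusted p under 0.05 in limma, 8 H2A, 12 H2B, 7 H3, 6 H4 and 0 H1 probes were higher, and 0, 1, 1, 1 and 0 were lower. The shares higher were 44.4%, 66.7%, 50%, 37.5% and 0%, against 11.7% of all tested probes. Those lower were 0%, 5.56%, 7.14%, 6.25% and 0%, against 13.7%. By location, the large HIST1H cluster on chromosome 6 had 48 of 57 probes higher with a median of 0.12 (-0.06 with spike-in scaling), and the HIST2H genes on chromosome 1 had 9 of 9 higher with a median of 0.17 (-0.02 with spike-in scaling). The 3 HIST3H probes had a median of 0.01 (-0.18 with spike-in scaling). Of all tested probes 46.2% were higher on the 75th percentile scale.

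**Figure D2:**
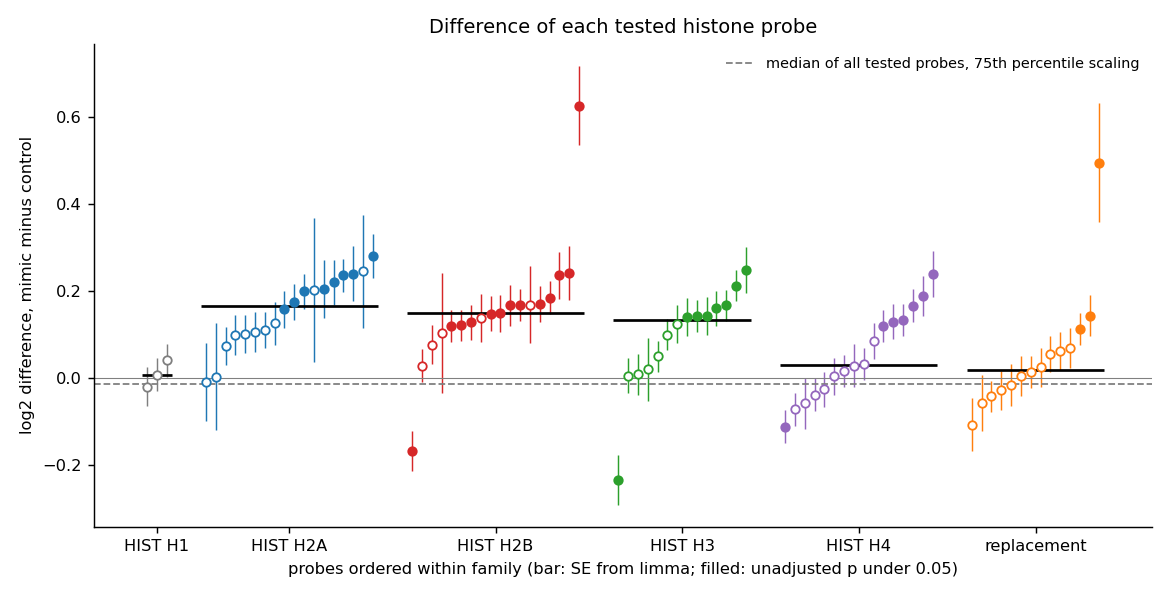
Points are the log2 differences of the tested probes (mimic minus control, 75th percentile scaling), ordered within each family, with the limma SE as bars; filled points had an unadjusted p under 0.05, black lines are family medians, and the dashed line is the median of all tested probes (-0.01). H2A, H2B and H3 medians lie at 0.17, 0.15 and 0.13 and those of H1, H4 and the replacement variants at 0.01, 0.03 and 0.02; all turn negative with spike-in scaling.

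Among the HIST probes, HIST1H2BF (now H2BC7, a core H2B gene) had the largest difference. Its probe A_33_P3229122, which holds the stem-loop shown above, read -0.37 and -0.55 on the mimic arrays and -1.15 and -1.01 on the control arrays, a difference of 0.63 ± 0.09 (SE; limma adjusted p = 0.0709). The groups did not overlap. The difference was 0.44 with spike-in scaling, and the adjusted p passed the threshold in 3 of 14 alternatives (range 0.011 to 0.466).

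HIST2H2AA4, an H2A gene (chr1:149822628-149822687, hg19), read 0.66 and 0.76 with the mimic and 0.42 and 0.44 in the control (difference 0.28 ± 0.05 SE; limma adjusted p = 0.0903). HIST2H3A, an H3 gene whose probe also ends at the stem-loop, read 6.45 and 6.45 against 6.26 and 6.15 (difference 0.25 ± 0.05 SE; limma adjusted p = 0.111). HIST2H4B, an H4 gene, read 3.67 and 3.74 against 3.43 and 3.50 (difference 0.24 ± 0.05 SE; limma adjusted p = 0.116). In these 3 genes both mimic arrays lay above both control arrays. Each has a near-identical copy in the HIST2H cluster, so its signal may come from either copy.

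In the HIST1H cluster, HIST1H2AC, an H2A gene, was read by 3 probes. The brightest (chr6:26124461-26124520, hg19) gave 2.12 and 2.09 with the mimic and 1.86 and 1.88 in the control, a difference of 0.24 ± 0.04 (SE; limma adjusted p = 0.0784). The probe just before it, at chr6:26124403-26124462, gave -1.17 and -1.49 against -1.61 and -1.54 (difference 0.25 ± 0.13 SE; limma adjusted p = 0.328), and the remaining probe, at chr6:26138822-26138881, gave 0.20 ± 0.17 (SE) with overlapping groups. The 3 probes had the same sign, and the precision differed among them. With spike-in scaling their differences were 0.049, 0.058 and 0.015. HIST1H2AG read 3.16 and 3.25 with the mimic and 3.02 and 2.91 in the control (difference 0.24 ± 0.06 SE; limma adjusted p = 0.143). HIST1H2BJ read 1.53 and 1.40 against 1.21 and 1.23 (difference 0.24 ± 0.06 SE; limma adjusted p = 0.138), and HIST1H2BC read 1.44 and 1.46 against 1.16 and 1.27 (difference 0.24 ± 0.05 SE; limma adjusted p = 0.121). The groups did not overlap in any of these 3 genes.

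The exception among the 10 largest differences was HIST1H3I, an H3 gene (chr6:27839857-27839916, hg19). It read 0.52 and 0.52 with the mimic and 0.81 and 0.70 in the control, a difference of -0.23 ± 0.06 (SE; limma adjusted p = 0.128). With spike-in scaling the difference was -0.42. Both mimic arrays lay below both control arrays, and the other HIST probes with an unadjusted p under 0.05 in the lower direction were 1 of HIST1H2BK and 1 of HIST1H4K.

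**Figure D3:**
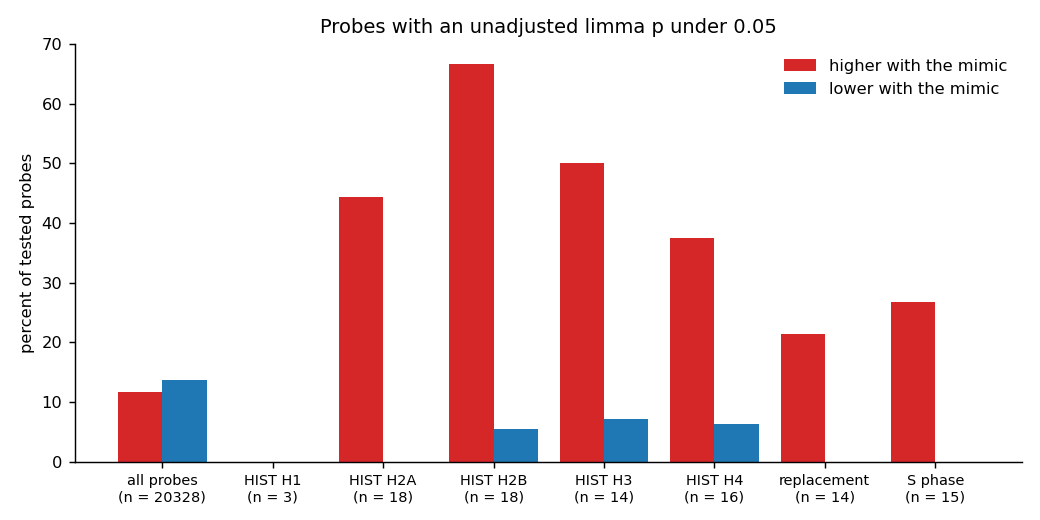
Bars give the percent of tested probes with an unadjusted limma p under 0.05, higher or lower with the mimic (75th percentile scaling), for all tested probes, the HIST families, the replacement variants and a list of S phase genes (n, probes). The higher bars of H2A, H2B, H3 and H4 exceed the 11.7% of all tested probes, and their lower bars lie under its 13.7%. With spike-in scaling the medians of these 4 families turn negative. On that scale 0%, 11.1%, 28.6% and 56.2% of their probes were lower, against 55.8% of all tested probes. The shares higher were then 0%, 5.56%, 0% and 0%, against 3.37%.

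Several genes were read by probes that disagreed. HIST1H2BK gave a difference of -0.17 ± 0.05 (SE; 1.99 and 2.04 against 2.15 and 2.21) at chr6:27106191-27106250 and of 0.13 ± 0.04 (SE; 2.53 and 2.52 against 2.42 and 2.38) at chr6:27114437-27114496, both on the minus strand of hg19 and 8246 bases apart, with adjusted p of 0.149 and 0.172 in limma. The groups did not overlap at either probe. HIST1H4K gave -0.11 ± 0.04 (SE) at the probe that holds the stem-loop and 0.13 ± 0.04 (SE) at a probe 135 bases away. HIST1H4D gave -0.06 ± 0.06 (SE) and 0.17 ± 0.04 (SE) at probes 49 bases apart, and HIST1H4L gave -0.04 ± 0.04 (SE) and 0.03 ± 0.05 (SE) at probes 105 bases apart. None of these probes passed the adjusted threshold in limma. The first HIST1H4K probe shared a run of 37 bases with a probe of HIST1H4J, and the second 26 with HIST1H4H. The second HIST1H2BK probe shared 32 with HIST1H2BD, and the first at most 9 with any other member gene. Whether these probes also read the other genes was not tested. HIST2H2BE was well above background on the 4 arrays at 1 of its probes, and on none at the other, 1037 bases away on the same chromosome. HIST2H2BF was read by 4 probes, of which 2 were well above background on the 4 arrays (0.17 and 0.15) and 2 on none.

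Histone genes of a family are close copies, so their probes are not independent readings. The longest run of bases shared with a probe of another member gene was 20 or more for 27 of the 69 tested HIST probes and for 0 of the 14 replacement probes. The 27 had a median difference of 0.13 (25 higher) and the other 42 a median of 0.10 (35 higher); these values are on the 75th percentile scale, and the direction of the HIST median turns with spike-in scaling. The median share of G and C in the probe was 53.3% for tested HIST probes, 43.3% for tested replacement probes and 43.3% over all probes, and its part in the difference was not tested.

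Many H2A and H2B genes start back to back and share the DNA between their starts. In RefSeq's GRCh38.p14 promoters, 76 of the 85 members had an entry, and 11 H2A and H2B pairs of HIST genes started on opposite strands within 500 bases of each other (194 to 248 bases apart). Both genes were tested in 10 pairs, and in all 10 both differences were above 0 on the 75th percentile scale. Since 17 of 18 tested probes were higher in each of the H2A and H2B families, nearly any pairing would give this. The count therefore says nothing particular of paired genes, and the HIST medians turn with spike-in scaling. HIST1H2AG and HIST1H2BJ differed by 0.24 ± 0.06 and 0.24 ± 0.06 (SE), HIST1H2AC and HIST1H2BC by 0.24 ± 0.04 and 0.24 ± 0.05, and HIST1H2AM and HIST1H2BO by 0.18 ± 0.04 and 0.17 ± 0.04. HIST1H2AD and HIST1H2BF stood apart from this, with 0.16 ± 0.04 for the H2A gene and 0.63 ± 0.09 for the H2B gene. HIST3H2A and HIST3H2BB gave 0.00 ± 0.12 and 0.17 ± 0.09. Whether paired genes differed less from each other than other genes was not tested.

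**Figure D4:**
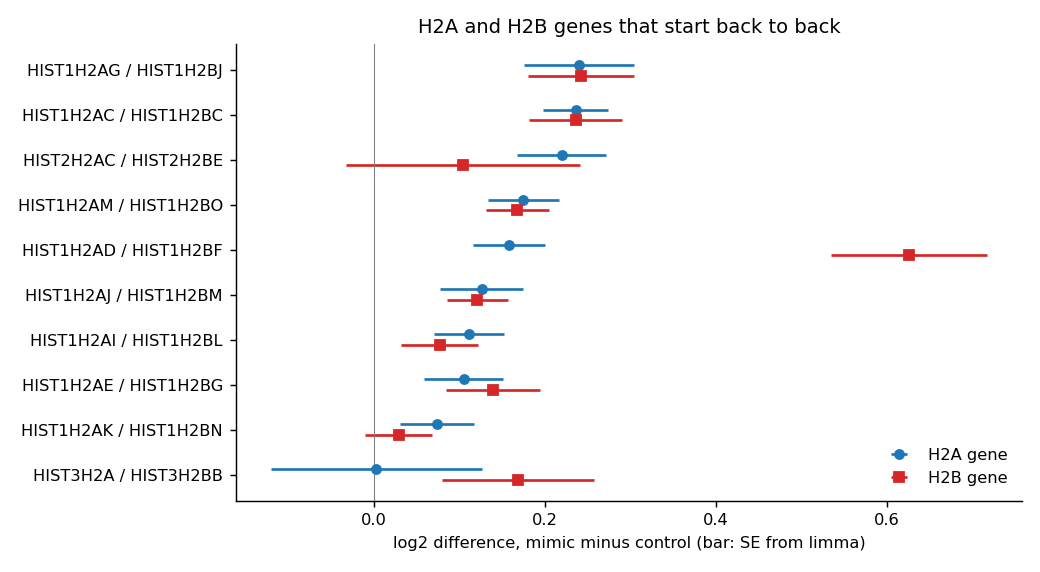
Circles (H2A) and squares (H2B) are the log2 differences, mimic minus control on the 75th percentile scale, of the 2 genes of each back-to-back pair, with the limma SE as bars. The 20 points lie above 0, and the HIST1H2BF square at 0.63 is farthest from its partner. In each of the 2 families 17 of 18 tested probes were above 0. With spike-in scaling the median of all HIST probes was below 0.

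H2B promoters are known for an octamer, ATTTGCAT, which is bound by the POU factor OCT1. It was sought with TATAAA and CCAAT on both strands of the 250 bases before each start. The octamer was present in 14 of 18 H2B genes (77.8%), 11 of 15 H2A genes (73.3%), 1 of 11 H3 genes and 0 of the 6 H1 and 13 H4 genes, against 2.03% of all 27305 genes. TATAAA was present in 42 of 63 HIST genes (66.7%, against 13% of all genes) and CCAAT in 53 of 63 (84.1%, against 37%), with 3 of 13 H4 genes holding the latter. Among the 13 replacement genes 1 held the octamer, 4 TATAAA and 11 CCAAT. In 4 H2B promoters the octamer was followed within 25 bases by TATAAA on the gene's strand; they are shown 5′ to 3′ on the minus strand with both motifs in capitals, since HIST1H2BJ and HIST1H2BK are described above.
HIST1H2BG, chr6:26216705-26216746: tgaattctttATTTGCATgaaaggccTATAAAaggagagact
HIST1H2BJ, chr6:27132808-27132852: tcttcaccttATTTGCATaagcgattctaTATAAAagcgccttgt
HIST1H2BK, chr6:27146870-27146914: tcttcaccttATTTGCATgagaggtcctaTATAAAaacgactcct
HIST2H2BE, chr1:149886697-149886738: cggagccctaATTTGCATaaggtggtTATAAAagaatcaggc
The differences of these 4 genes at their brightest probe were 0.14, 0.24, 0.13 and 0.10. Over H2A and H2B genes with a promoter entry, those with the octamer had a median difference of 0.16 (22 tested genes, 21 higher) and those without it 0.09 (8 tested genes, 8 higher) on the 75th percentile scale; this difference was not tested, and the HIST direction turns with spike-in scaling. A match is a description of the letters and not of a bound site.

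The second question was whether the replacement variants differed. Of the 14 tested probes 9 were higher (64.3%) with a median of 0.02 on the 75th percentile scale and -0.17 with spike-in scaling, where the median of all tested probes was -0.20. No replacement probe passed the adjusted threshold in limma (smallest adjusted p 0.149), and at an unadjusted p under 0.05 there were 3 higher (21.4%, against 11.7% of all tested probes) and 0 lower (against 13.7%). With limma's variance modeled on intensity 2 passed as higher (14.3%, against 6.63%) and 0 as lower (against 8.54%). After normexp and quantile normalization 0 passed in either direction (against 3.58% higher and 3.42% lower), and with spike-in scaling 8 passed as lower (57.1%, against 44.6%) and 0 as higher (against 2.54%). The largest value belonged to H1FX-AS1, an antisense transcript of the H1FX locus that matched the name rule and is not a histone gene. It read -2.18 and -2.23 with the mimic and -2.52 and -2.87 in the control (difference 0.50 ± 0.14 SE; limma adjusted p = 0.149). Without it the median of the other 13 probes was 0.01.

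Of the H2A variants, H2AFX encodes H2A.X, which is phosphorylated at DNA breaks. It read 3.09 and 3.03 with the mimic and 2.89 and 2.94 in the control (difference 0.14 ± 0.05 SE; limma adjusted p = 0.185), and the groups did not overlap. H2A.Z, found at promoters and enhancers, is encoded by H2AFZ and H2AFV. H2AFZ read 6.90 and 6.98 against 6.93 and 6.94 (difference 0.01 ± 0.05 SE; limma adjusted p = 0.955), and H2AFV read 5.96 and 5.98 against 5.86 and 5.85 (difference 0.11 ± 0.04 SE; limma adjusted p = 0.183). The groups of H2AFZ overlapped and those of H2AFV did not. The macroH2A genes H2AFY and H2AFY2, whose proteins are found in silent chromatin, gave -0.04 ± 0.04 (SE; 6.94 and 6.95 against 6.99 and 6.98) and -0.06 ± 0.06 (SE; 0.47 and 0.59 against 0.55 and 0.63). H2AFJ gave -0.03 ± 0.05 (SE; 3.72 and 3.66 against 3.70 and 3.74). H2AFJ, H2AFV and H2AFY each had another probe that was well above background on no array.

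H3.3, the H3 variant that is placed outside replication, is encoded by H3F3A and H3F3B. The 4 probes of H3F3A gave differences of -0.02 to 0.06, and the brightest read 7.45 and 7.46 with the mimic and 7.43 and 7.36 in the control (0.06 ± 0.04 SE; limma adjusted p = 0.436). The 2 probes of H3F3B gave 0.06 ± 0.04 and 0.07 ± 0.05 (SE), and the brighter read 7.47 and 7.53 against 7.45 and 7.44. Each of these differences was under 2 SE. The linker variant H1FX read 0.98 and 1.11 against 1.13 and 1.18 (difference -0.11 ± 0.06 SE; limma adjusted p = 0.354).

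**Figure D5:**
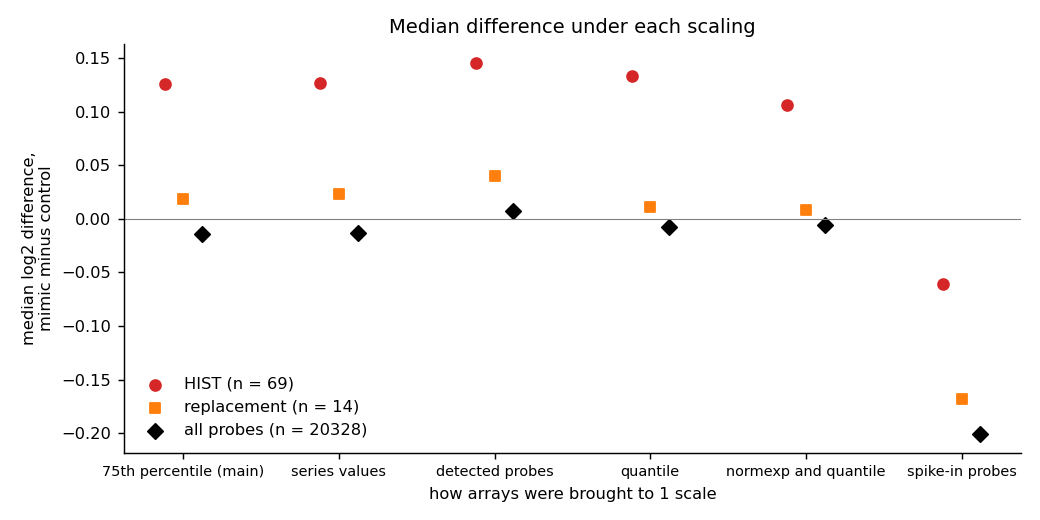
Medians of the log2 difference, mimic minus control, for HIST probes (circles), replacement probes (squares) and all tested probes (diamonds) under 6 ways of bringing the arrays to 1 scale. The HIST median lay between 0.11 and 0.15 under the first 5 and at -0.06 with the spike-in probes, where all probes lay at -0.20, and it was above the median of all probes under each.

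Genes that make, carry or accompany histones were read next, with 1 probe per gene, the brightest. Of 11 genes for histone message processing 9 were tested, 5 were higher, and the median was 0.00 (-0.19 with spike-in scaling). None passed the adjusted threshold in limma, and 1 had an unadjusted p under 0.05, in the lower direction: SYMPK, a scaffold of the cleavage complex (3.72 and 3.80 against 4.07 and 3.94; difference -0.24 ± 0.07 SE; limma adjusted p = 0.155). SLBP, the stem-loop binding protein, read 5.10 and 5.16 with the mimic and 5.08 and 5.13 in the control. The groups of SLBP overlapped.

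All 22 histone chaperones and deposition factors were tested, 15 were higher, and the median was 0.06 (-0.13 with spike-in scaling). In limma 1 passed the adjusted threshold, in the lower direction, and 0 in the higher. ANP32E, a chaperone that removes H2A.Z from nucleosomes, read 1.15 and 1.16 with the mimic and 1.57 and 1.56 in the control, and fell by 0.42 ± 0.04 (SE; limma adjusted p = 0.039). The adjusted p passed the threshold in 8 of 14 alternatives (range 0.00128 to 0.45), and without any 1 of the 4 arrays it was 0.155 to 0.196. Its other 2 tested probes gave -0.23 ± 0.07 and 0.26 ± 0.13 (SE), with adjusted p of 0.17 and 0.318 in limma, so the probes of this gene disagreed in sign.

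Of 16 genes of S phase (DNA replication and nucleotide supply) 15 were tested and 13 were higher, with a median of 0.11 on the 75th percentile scale and -0.08 with spike-in scaling. None passed the adjusted threshold in limma, and 4 had an unadjusted p under 0.05, all higher (26.7%, against 11.7% of all tested probes). MCM5, a subunit of the replicative helicase, read 3.53 and 3.54 with the mimic and 3.34 and 3.33 in the control (difference 0.20 ± 0.04 SE; limma adjusted p = 0.0897). CCNE2, a cyclin of S phase entry, gave -0.19 ± 0.08 (SE; limma adjusted p = 0.238). The S phase genes and the HIST genes had medians of like size on the same arrays, 0.11 and 0.13 (-0.08 and -0.06 with spike-in scaling), and the part of S phase in the histone values was not tested. CENPA, the centromeric H3 variant that the name rule does not take in, read 1.51 and 1.55 with the mimic and 1.22 and 1.27 in the control (difference 0.29 ± 0.04 SE; limma adjusted p = 0.072).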

How the data were processed

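Gene expression was measured in 4 samples of GIST-T1 cells, 2 with the miR-335 mimic and 2 with the negative control, on 1-color Agilent arrays. The files that the authors deposited hold the spot intensity given by Feature Extraction (version 10.7 in the submitters' processing notes, 10.7.3.1 per the file headers): the processed signal, background-subtracted within each array and not normalized between arrays. The series value table, deposited too, holds the same intensity to within 0.497% and served as an alternative; 0 of its columns matched no sample. The authors' analysis used GeneSpring with a 1.5-fold limit.

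Outlier spots (356 to 395 per array) were left out, spots of 1 probe were averaged as log2 values, and the array's 75th percentile (178.8 to 189.7 intensity units) was subtracted. Probes well above background, in at least 0.5 of their spots, on both arrays of 1 group were tested in R 4.3.3 with limma 3.58.1 (lmFit, then eBayes with neither trend nor covariates) and Benjamini-Hochberg adjustment over all 20328 probes and a threshold of 0.05. This step was also tested on simulated data. The number of arrays limits the precision: an exact permutation test of 2 against 2 arrays cannot go below p = 0.333. The 10 spike-in probes, 7 of them well above background on the 4 arrays, gave the spike-in scaling. A slide block could not be fitted, because there was 1 slide and 1 scan. The labels do not say whether the replicate numbers pair the samples, and the main fit did not pair them. The replicate differences of the 2 groups correlated with r = 0.035 across probes. This correlation cannot tell whether samples of the same number were handled together.

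The members and lists were chosen with earlier results of these data known, from the gene names of the array design. All 85 names were matched to current symbols in RefSeq's table for GRCh38.p14, and RefSeq tables of that build gave the microRNA and promoter sequences. Values on each array were printed for every replacement gene with a tested probe, for HIST probes past the adjusted threshold (there were 0), and for the 10 HIST probes with the largest absolute difference; genes whose probes disagreed were named too, and of other lists values were given for genes past the threshold or with the largest difference. SLBP, CENPA and CCNE2 were named after their values were seen. The labeling kit (Low Input Quick Amp) primes from poly(A) tails, which replication-dependent messages lack; its part in the values was not tested. Whether a probe lies in coding sequence was not analysed here. Python 3.11.15, pandas 2.3.3 and matplotlib 3.10.9 served for sequences and figures.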

Additional observations from a re-analysis of the deposited data

How the results depend on the processing

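The median difference of the HIST probes, 0.13, kept its direction under 11 of 12 alternatives. The filter on all 4 arrays kept the same 69 probes, and the series table holds nearly the same intensities, so these could hardly move it. All 11 brought the arrays to 1 scale by their own gene probes, and only the spike-in scaling used another reference. The HIST median was 0.11 after normexp and quantile normalization and 0.15 with scaling to the detected probes. It was 0.116 to 0.131 when each array was left out in turn, and -0.061 (reversed) with spike-in scaling. The replacement median, 0.02, was 0.04 with scaling to the detected probes, 0.063 with no filter on dim probes, 0.003 to 0.044 without each array and -0.168 (reversed) with spike-in scaling; without the antisense transcript, an alternative chosen after seeing the data, it was 0.01. Between the 75th percentile and the spike-in scaling the difference of every tested probe moved by the same 0.187. Which of the 2 scales is nearer the RNA in the cells was not tested. The count of HIST probes past the adjusted threshold was 0 in limma. With normexp it was 5, all higher, against 3.58% of all tested probes. With spike-in scaling it was 17 (16 lower and 1 higher, against 44.6% and 2.54%). With a variance trend it was 35 (33 higher and 2 lower, against 6.63% and 8.54%). By the methods' t-test unadjusted it was 30 of 69 (28 higher and 2 lower). That t-test gave 1884 higher and 2231 lower of all 20328 tested probes. After Benjamini-Hochberg it gave 0 HIST probes. For replacement probes the count, 0 in limma, was 8 with spike-in scaling (0 higher), 2 with the trend (0 lower) and 2 by the t-test unadjusted (1 higher and 1 lower). The shares of all tested probes are those just given. Of all tested probes 532 passed; the count was 1423 with normexp, 9592 with spike-in scaling (9076 lower), 3083 with the trend, 4115 by the t-test unadjusted, 0 by it adjusted, 0 with no filter and 0 to 8 without each array. With the replicate block it was 0 for all tested probes, HIST and replacement probes alike. HIST probes over 1.5-fold, 1, were 0 with normexp, 0 with spike-in scaling, 3 with no filter, 0 at a 2-fold limit and 0 to 1 without each array; replacement probes, 0, were 1 with no filter and 0 to 1 without each array. No other alternative moved these values past the spread between replicates or the counts by over 1.5 times.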
